A study of Mus musculus with 75 samples.

Results

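Liver tumors of 10-month-old mice were set against the livers of 3-week-old vehicle mice, to ask which differences between tumor and adult liver place the tumor at the juvenile level and which do not. The comparison took 7 tumor samples and 7 juvenile samples, which are 14 of the 74 samples of the series, chosen by their age, exposure and tumor labels. All mice were C57Bl/6 males with no engineered allele named. The tumors came from mice whose mothers drank tributyltin (TBT), an organotin compound, at 0.5 mg/kg each day, a concentration of 3.07 µM, while the pups were carried and nursed. The juvenile livers came from mice of mothers given vehicle, and a pair of libraries with the same sample number was summed into juvenile sample 3. Livers of 6 vehicle mice of 10 months served as the adult reference in the same fit, and livers of 7 vehicle mice of 5 months as a separate adult reference. Tumors and juvenile livers differ in age, in exposure and in being a tumor, and these cannot be told apart here. The labels give no histology, hour of collection or feeding state. They number the samples without saying that each is a separate animal, so p-values measure the spread between these samples only.

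The liver of a newborn mouse still grows: hepatocytes divide, blood cell formation fades, and fetal genes such as Afp, H19 and Gpc3 are being silenced. Sex differences in liver expression arise later, at puberty, when the male pattern of growth hormone pulses and androgen switch on genes such as the major urinary proteins (Mup) and switch off genes that stay on in females. Liver tumors often express fetal genes again.

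Tumor libraries held 22.5 to 27.9 M (mega) counts, juvenile libraries 6.76 to 19.4 M, 10-month vehicle libraries 26.2 to 31.0 M and 5-month vehicle libraries 2.83 to 34.1 M. Albumin (Alb) marked every sample as liver, at 44542 to 83035 counts scaled to library size (CPM, counts per M) in tumors, 110010 to 164820 CPM in juvenile livers and 80736 to 102100 CPM in 10-month vehicles. Libraries that stood apart were one library of juvenile sample 3, with 13.5% mitochondrial counts, and 5-month vehicle 9, which had 2.83 M counts and 38206 genes detected. Juvenile samples 1 and 2 also had many genes detected, 30708 and 27350.

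Tumors and juvenile livers differed at 6944 of 15985 genes tested (43.4%) in edgeR's quasi-likelihood test at an adjusted p under 0.05. Of these 3728 (23.3%) were higher and 3216 (20.1%) lower in tumors, and 1324 and 819 of them differed by at least 2-fold. Against 10-month vehicles the tumors differed at 7074 genes (44.3%), with 24.1% of all genes tested higher and 20.1% lower. The juvenile livers differed from them at 8007 (50.1%), with 25.6% higher and 24.5% lower. Counts of list members below are to be read against these shares. The lists and their members were chosen with earlier results of these data known, so a count above a share is a description and not a test. The median log2 fold change over all genes was 0.016 for tumor against juvenile, -0.0068 for tumor against 10-month vehicle and -0.0058 for juvenile against 10-month vehicle. The last 2 contrasts share the 10-month vehicles, so below each is given with its own values side by side.

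A tumor change was a gene that differed between tumors and 10-month vehicles by at least 2-fold at an adjusted p under 0.05. There were 2586 (16.2% of genes tested), of which 2165 (13.5%) were higher and 421 (2.63%) lower in tumors. For 537 of them (3.36% of genes tested) the tumors lay at the juvenile level: the juvenile liver was changed in the same direction, and the 95% interval of tumor minus juvenile lay within 2-fold either way. These were 451 of the rises and 86 of the falls, 20.8% and 20.4%. The class can include smaller called differences between tumors and juvenile livers. For 1124 tumor changes (7.03%) the tumors lay at least 2-fold away from the juvenile level with a called difference. The other 925 could be placed in neither class.

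The 1124 changes away from the juvenile level fell into 5 kinds. In 221 the interval of the juvenile liver against the 10-month vehicles lay within 2-fold, which can include smaller called differences. In 79 the juvenile liver was changed in the opposite direction. Both were changed the same way in 436 genes, with the juvenile liver further from the adult in 251 and the tumors further in 185. For 388 the interval of the juvenile liver against the adult was too wide to place it. In the reverse direction, 559 genes (3.5% of genes tested) differed by at least 2-fold between juvenile and 10-month vehicle liver while the tumors lay within 2-fold of the adult and apart from the juvenile. They held 276 of the 2005 genes higher in juvenile liver (13.8%) and 283 of the 822 genes lower in it (34.4%). The counts depend on the adult reference: with the 5-month vehicles in place of the 10-month vehicles, 55 tumor changes lay at the juvenile level and 500 away from it, and without 5-month vehicle 9 these were 153 and 730.

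**Figure D1:**
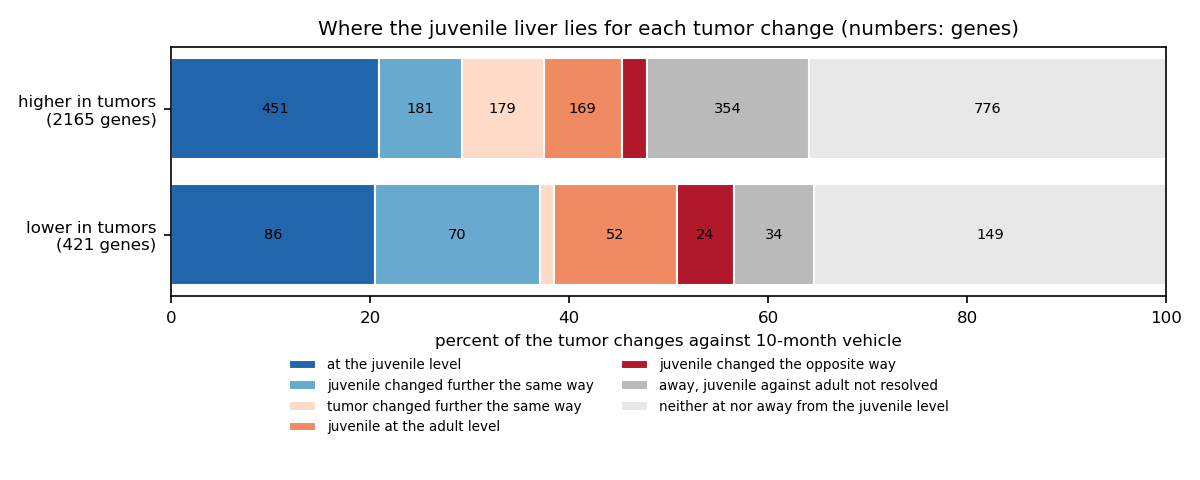
Bars divide the 2165 genes higher and the 421 genes lower in tumors than in 10-month vehicles (horizontal axis: percent of each) by where the juvenile liver lies; numbers are genes. The first segment holds 451 and 86 genes at the juvenile level; the unlabelled narrow segments hold 55 genes in which the juvenile liver was changed the opposite way (upper bar) and 6 in which the tumor was changed further the same way (lower bar).

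The samples were also placed along genes chosen without any tumor or 10-month library. Juvenile livers differed from the 5-month vehicles at 2627 of 13927 genes (18.9%), and by at least 2-fold at 607 higher and 411 lower. Regardless of size, 9.93% of genes were called higher and 8.93% lower. Over the 607 genes, mean log2 CPM minus the 10-month vehicle mean ran from 0.326 to 1.35 in tumors (1.11 ± 0.357, SD, n = 7), from 2.34 to 2.69 in juvenile livers and from -0.149 to 0.207 in 10-month vehicles. Tumor 7 gave the 0.326, and the other 6 tumors lay between 1.1 and 1.35. Every tumor therefore lay above every 10-month vehicle and below every juvenile liver on these genes. The same juvenile livers were used to choose the 607 and the 411 genes, so their own distance from the adults is in part set by that choice. That the tumors lay below them is therefore not an independent result.

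Over the 411 genes lower in juvenile liver the mean of the tumors, which averages genes that go both ways, was -0.249 to -0.0561 (-0.143 ± 0.0591, SD, n = 7). Juvenile livers lay at -2.33 to -1.95 and 10-month vehicles at -0.0644 to 0.0555. The 5-month vehicles themselves ran from -0.22 to 1.19 over the juvenile-higher genes, with vehicles 6, 4 and 9 at 0.67, 0.944 and 1.19, inside or near the tumor range. Without 5-month vehicle 9 and the library of juvenile sample 3 that stood apart, 1031 and 431 genes gave tumor means of 1.01 and -0.122 beside juvenile means of 2.24 and -2.07.

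**Figure D2:**
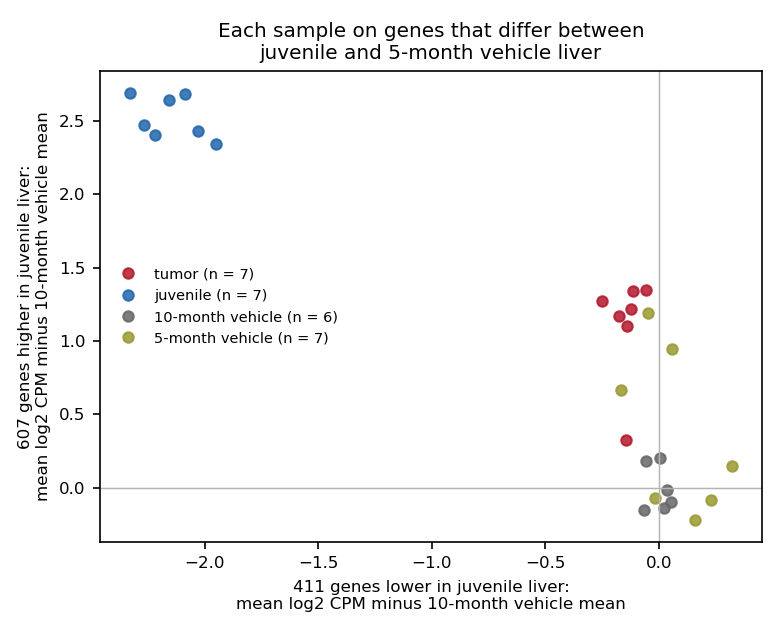
Each point is a sample, placed by its mean log2 CPM minus the 10-month vehicle mean over the 411 genes lower (horizontal) and the 607 genes higher (vertical) in juvenile than in 5-month vehicle liver. Tumors lie at 0.326 to 1.35 on the vertical axis and at -0.249 to -0.0561 on the horizontal axis; 3 of the 5-month vehicles also lie at 0.67 to 1.19 vertically.

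Gene by gene, with libraries disjoint between both contrasts, 291 of the 607 juvenile-higher genes (47.9%) were tumor rises, against 11.6% of all 13922 genes in both fits. They were 18% of the 1618 tumor rises. Without the libraries that stood apart these were 463 of 1031 juvenile-higher genes (44.9%) and 28.4% of 1632 tumor rises. Of the 411 juvenile-lower genes 80 (19.5%) were tumor falls, against 2.41% of all genes, and 78 (19%) were tumor rises.

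Cell division genes were high in both tissues, and higher in the juvenile liver. All 29 genes of a mitosis list, which holds the cyclins, kinases and spindle proteins of dividing cells, rose in tumors and in juvenile livers against 10-month vehicles, with median log2 fold changes of 3.30 and 4.37. Between tumors and juvenile livers 18 of the 29 were lower in tumors and 0 higher (median -0.955). The summed level of the list was 36.1 to 382 CPM in tumors, 362 to 641 CPM in juvenile livers and 20.5 to 51.4 CPM in 10-month vehicles.

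Mki67, the Ki-67 proliferation antigen, was at 6.15, 41.8 and 69.6 CPM (lowest, median, highest) in tumors, 67.6, 96.0 and 179 CPM in juvenile livers and 1.64, 3.66 and 7.86 CPM in 10-month vehicles. Its log2 fold change of tumor against juvenile was -1.42 (SE 0.382, adjusted p = 0.00639). Tumor 7 gave the 6.15 and lay within the adult range, and tumor 3 at 69.6 CPM was the only tumor inside the juvenile range. Birc5, the inhibitor of apoptosis survivin, was at 1.08, 4.73 and 7.22 CPM in tumors and 8.05, 9.47 and 14.6 CPM in juvenile livers, with no overlap (-1.33, SE 0.262, adjusted p = 0.000367). Aurka, the mitotic kinase Aurora A, also lay below the juvenile range in every tumor (-0.97, SE 0.205, adjusted p = 0.000654).

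Of the 29 mitosis genes 1 lay at the juvenile level and 11 away from it, beside 3.36% and 7.03% of all genes tested. The others were in neither class, and a wide interval alone can keep a gene from the juvenile level. Kif20a, a kinesin of cytokinesis, was at 0.91, 14.8 and 17.04 CPM in tumors, 9.5, 12.9 and 15.1 CPM in juvenile livers and 0.654, 0.877 and 1.91 CPM in 10-month vehicles (tumor minus juvenile -0.16, SE 0.398, adjusted p = 0.775). Ckap2, a spindle-associated protein, gave 0.028 (SE 0.448, adjusted p = 0.968). The distance of the mitosis list from the juvenile level depended on the juvenile group: against 3-week TBT livers 4 of the 29 were lower and the median was -0.62. Against the vehicle juveniles and without tumor 7 the median was -0.77.

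Of 30 genes of the replication machinery, 20 were lower and 1 higher in tumors than in juvenile livers (median -0.65), with medians of 0.84 for tumors and 1.41 for juvenile livers against 10-month vehicles. Pcna, the sliding clamp of DNA polymerase, was at 19.7, 26.01 and 30.5 CPM in tumors and 34.2, 36.3 and 48.1 CPM in juvenile livers, with no overlap (-0.52, SE 0.0932, adjusted p = 0.000108). Cdc6, which loads the replicative helicase, was the member furthest below (-2.12, SE 0.424, adjusted p = 0.000406). The 1 member above was Mcm10, at 29.7, 38.9 and 46.6 CPM in tumors, 10.8, 14.7 and 19.4 CPM in juvenile livers and 41.2, 67.3 and 102 CPM in 10-month vehicles, so it was highest in adult liver.

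The promoters of these lists are shown because their members moved together in both tissues. Mitotic genes are known to carry a cell cycle homology element and replication genes E2F sites. In the RefSeq promoters (GRCm38.p6, 250 bases before to 50 after each start) the letters TTTGAA, read on both strands, occurred in 17 of 24 mitosis genes with a promoter in the table (70.8%), in 18.1% of all 27025 promoters and in 12.5% of the 11385 promoters of genes tested here. The letters TTCCCGC occurred in 13 of 25 replication genes (52%), in 4.66% of all promoters and in 8.07% of those tested. None of the 24 mitosis promoters held TTCCCGC (0 of 24), and 3 of the 25 replication promoters held TTTGAA. A match of letters is a description and not a binding site.

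Of the mitosis list, 4 stretches of 90 bases are printed 5′ to 3′ in the direction of the gene, each ending before the first annotated transcript start, with TTTGAA or its reverse complement TTCAAA in capitals: Top2a (chr11:99024190-99024279, minus strand), Cdk1 (chr10:69352939-69353028, minus strand), Cdc20 (chr4:118437353-118437442, minus strand) and Kif11 (chr19:37376292-37376381, plus strand).
Top2a: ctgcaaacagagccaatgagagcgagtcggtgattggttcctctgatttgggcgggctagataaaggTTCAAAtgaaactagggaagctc
Cdk1: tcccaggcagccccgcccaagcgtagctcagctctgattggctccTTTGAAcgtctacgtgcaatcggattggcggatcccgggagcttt
Cdc20: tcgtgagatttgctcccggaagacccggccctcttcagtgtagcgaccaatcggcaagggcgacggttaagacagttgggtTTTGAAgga
Kif11: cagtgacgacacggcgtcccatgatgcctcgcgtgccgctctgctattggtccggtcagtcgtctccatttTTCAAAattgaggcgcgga

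Top2a encodes topoisomerase II alpha, Cdk1 the kinase that starts mitosis, Cdc20 an activator of the anaphase-promoting complex and Kif11 a spindle kinesin. Their log2 fold changes of tumor against juvenile were -1.03, -0.50, -0.64 and -1.05, of which those of Top2a and Kif11 passed the test. Of the replication list, 3 stretches show TTCCCGC in capitals: Rrm1 (chr7:102441605-102441694, plus strand), Chaf1a (chr17:56040326-56040415, plus strand) and Uhrf1 (chr17:56303231-56303320, plus strand).
Rrm1: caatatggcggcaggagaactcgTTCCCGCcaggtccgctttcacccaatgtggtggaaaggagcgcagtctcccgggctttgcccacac
Chaf1a: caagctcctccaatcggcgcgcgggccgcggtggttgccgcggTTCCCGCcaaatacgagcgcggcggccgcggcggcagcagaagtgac
Uhrf1: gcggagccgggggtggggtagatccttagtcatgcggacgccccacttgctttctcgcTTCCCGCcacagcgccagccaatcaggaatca

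Rrm1 is a subunit of ribonucleotide reductase, Chaf1a a histone chaperone at the replication fork and Uhrf1 a reader of hemimethylated DNA. Tumor minus juvenile was -0.90, -0.52 and -1.15 on the log2 scale, and those of Rrm1 and Uhrf1 passed the test.

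Cell cycle brakes were more often higher than lower in tumors. Of 20 brakes and p53 targets, 10 were higher and 3 lower in tumors than in juvenile livers (median 0.38). Cdkn2b, the CDK4 inhibitor p15, was at 0.26, 1.39 and 2.78 CPM in tumors, 0, 0.0786 and 0.266 CPM in juvenile livers and 0.241, 0.338 and 0.616 CPM in 10-month vehicles (3.81, SE 0.579, adjusted p = 2.64e-06). The lowest tumor overlapped the juvenile range. Cdkn2a, which encodes p16 and Arf, gave 2.65 (SE 0.692, adjusted p = 0.00119). Eda2r, a TNF receptor family member and p53 target, was above every juvenile liver in every tumor (3.19, SE 0.394, adjusted p = 1.77e-06). Ccng1, a p53-induced cyclin, was higher by 0.71 (SE 0.0746, adjusted p = 1.67e-07), also with no overlap.

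Cdkn1a, the CDK inhibitor p21, was an exception with its highest level in juvenile liver. It was at 8.67, 18.4 and 21.5 CPM in tumors, 25.1, 35.03 and 77.7 CPM in juvenile livers and 0.913, 1.64 and 6.52 CPM in 10-month vehicles (-1.43, SE 0.352, adjusted p = 0.00327). Btg2, an antiproliferative p53 target, lay at the juvenile level, at 54.8 CPM in the median tumor, 57.98 CPM in the median juvenile liver and 12.3 CPM in the median 10-month vehicle.

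Matrix genes made up 4 of the 6 largest rises at the juvenile level. They were Col6a3, a chain of collagen VI, Tnc, the matrix glycoprotein tenascin C, Lama2, a laminin chain, and Fbn1, fibrillin of elastic microfibrils. Col6a3 (ENSMUSG00000048126, chr1:90765923-90843971, GENCODE M21 on GRCm38) was at 64.8, 94.3 and 141 CPM in tumors, 54.2, 76.6 and 86.8 CPM in juvenile livers and 7.93, 10.7 and 14.2 CPM in 10-month vehicles. Tumors and juvenile livers overlapped, and both lay above every 10-month vehicle. The log2 fold change of tumor against juvenile was 0.44 (SE 0.163, adjusted p = 0.0336), beside 3.14 for tumor and 2.70 for juvenile against 10-month vehicle.

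Lama2 was at 13.1, 19.8 and 26.8 CPM in tumors, 14.2, 18.5 and 25.4 CPM in juvenile livers and 1.61, 2.50 and 4.93 CPM in 10-month vehicles (tumor minus juvenile 0.070, SE 0.193, adjusted p = 0.8). Fbn1 was 2.51 higher in tumors and 3.08 higher in juvenile livers than in 10-month vehicles, and Tnc 3.08 and 3.33. Tumor minus juvenile was -0.57 for Fbn1 (adjusted p = 0.024), a called difference, and -0.25 for Tnc (adjusted p = 0.549). Against the 5-month vehicles the juvenile livers were higher by 1.80 for Fbn1 (adjusted p = 0.000552), but Col6a3, Tnc and Lama2 did not pass the test (0.85, 0.83 and 0.95, adjusted p = 0.267, 0.178 and 0.176).

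Fibrillar collagens and other stellate cell genes were split. Of 20 stellate cell and fibroblast genes 14 rose in tumors and 17 in juvenile livers against 10-month vehicles (medians 1.61 and 1.55), and between both 11 were lower and 5 higher in tumors (median -0.76), with 3 higher against 3-week TBT livers. Col3a1, of collagen III, was at 59.8, 149.8 and 210 CPM in tumors, 286, 395 and 613 CPM in juvenile livers and 24.6, 31.1 and 39.8 CPM in 10-month vehicles, with no overlap (-1.61, SE 0.216, adjusted p = 6.81e-06). Col5a1, of collagen V, showed the smallest p of the list (-1.75, SE 0.0998, adjusted p = 2.13e-11). Among the 5 above the juvenile level were Cygb, the stellate cell globin (1.48, adjusted p = 7.31e-07), and Timp1, an inhibitor of matrix proteases (2.20, adjusted p = 0.00106), with Timp1 at no more than 3.77 CPM. In bulk tissue, fewer cells of a type and less RNA per cell cannot be told apart.

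The 6 largest falls at the juvenile level were Zfp982, Gna14, Col27a1, Aatk, Sdr9c7 and G0s2. Gna14 alone among them differed between tumors and juvenile livers by the test (-0.55, adjusted p = 0.0388). Col27a1, a fibrillar collagen chain, was at 6.24, 9.02 and 10.8 CPM in tumors, 6.83, 7.28 and 8.11 CPM in juvenile livers and 26.3, 33.0 and 43.4 CPM in 10-month vehicles. Zfp982, a zinc finger gene, was 2.70 lower in tumors and 2.80 lower in juvenile livers than in 10-month vehicles, and G0s2, an inhibitor of triglyceride lipase, 1.59 and 1.47 lower. Against the 5-month vehicles the juvenile falls of Zfp982, Aatk and Sdr9c7 passed the test (-1.59, -0.99 and -1.18), and those of Gna14, Col27a1 and G0s2 did not (-0.97, -0.92 and -1.52, adjusted p = 0.072, 0.0732 and 0.0995).

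**Figure D3:**
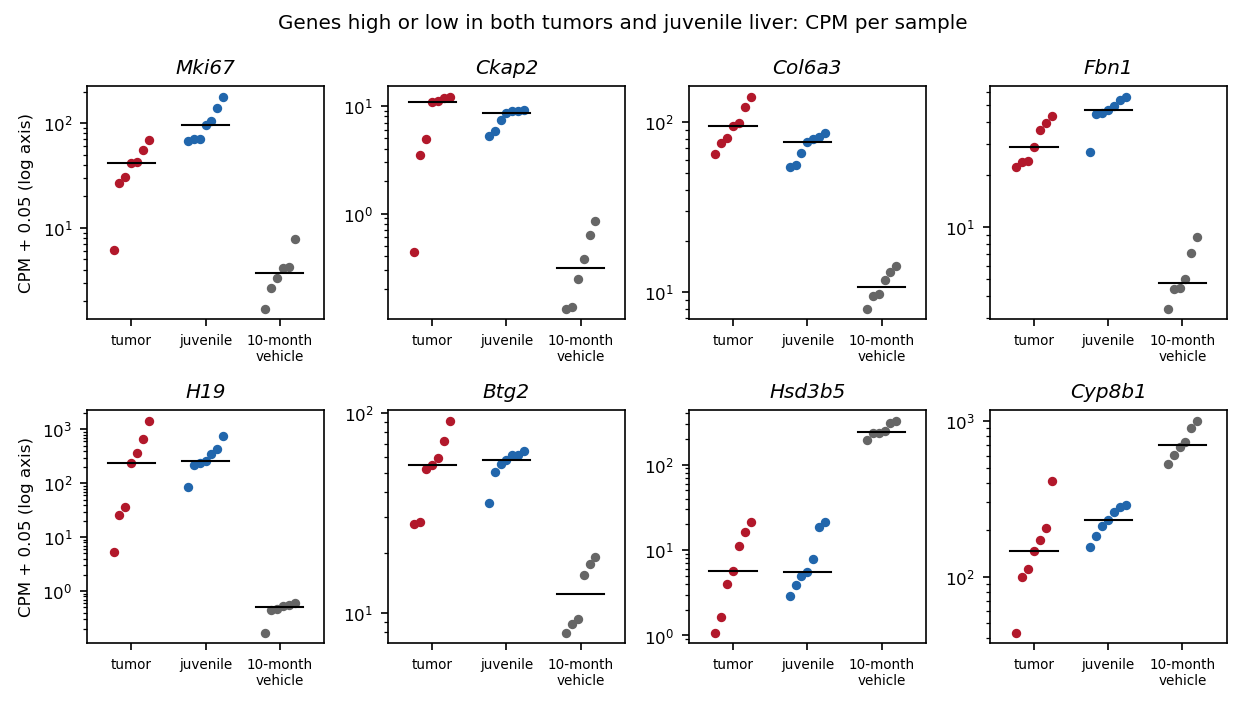
Each panel shows CPM plus 0.05 on a log axis for 1 gene, with a point per sample (7 tumors, 7 juvenile livers, 6 vehicles of 10 months) and a line at the median. Tumor and juvenile points overlap in all 8 panels and most lie far from the 10-month vehicles; the lowest tumor point of Mki67 and of Ckap2, both of tumor 7, lies among the vehicles.

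Fetal and tumor-associated genes were high in both tissues and split between them. Of 26 listed genes 18 passed the count filter: 13 rose in tumors and 15 in juvenile livers against 10-month vehicles (medians 2.1 and 1.70), and between tumor and juvenile 7 were higher and 6 lower in tumors (median -0.12). Without tumor 12 this median was -0.61. H19, an imprinted fetal long noncoding RNA, was at 5.37, 239 and 1456 CPM in tumors, 84.3, 257 and 764 CPM in juvenile livers and 0.12, 0.449 and 0.563 CPM in 10-month vehicles. Tumors and juvenile livers overlapped on H19 (0.26, SE 0.796, adjusted p = 0.824), with a wide spread among tumors and the lowest value in tumor 7.

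Afp, alpha-fetoprotein, was low in all groups, at 3.99, 5.15 and 16.8 CPM in tumors, 7.11, 9.90 and 10.96 CPM in juvenile livers and 2.68, 3.17 and 3.54 CPM in 10-month vehicles. Gpc3, the oncofetal glypican 3, was high in juvenile livers: 1.004, 2.38 and 9.43 CPM in tumors, 27.5, 31.8 and 44.6 CPM in juvenile livers and 1.17, 2.40 and 2.77 CPM in 10-month vehicles (-3.39, SE 0.335, adjusted p = 3.78e-07). Gpc1, glypican 1, showed the reverse, with tumors and adults above every juvenile liver (2.76, SE 0.205, adjusted p = 3.86e-09). Igf2bp3, a fetal RNA-binding protein, was intermediate in tumors, 2.1 above 10-month vehicles and 1.61 below juvenile livers. Ly6d, a GPI-anchored surface protein, was high in tumors, at 15.2, 173 and 322 CPM beside 1.30, 3.11 and 4.10 CPM in juvenile livers (5.79, SE 0.49, adjusted p = 1.18e-07). The 10-month vehicles held Ly6d at 0.986, 1.16 and 2.23 CPM, but juvenile livers lay below the 5-month vehicles on it (-3.27, adjusted p = 0.00995).

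Imprinted growth genes are highly expressed in the growing fetus and fall after birth. Of 20 tested, 9 rose and 1 fell in tumors, and 11 rose and 2 fell in juvenile livers, against 10-month vehicles, where 24.1% and 20.1% of all genes did in tumors and 25.6% and 24.5% in juvenile livers. Between tumors and juvenile livers 8 were lower and 1 higher in tumors than in juvenile livers (median -0.24). Peg3, a paternally expressed zinc finger gene, was at 2.57, 5.22 and 6.56 CPM in tumors, 34.3, 40.2 and 46.1 CPM in juvenile livers and 6.03, 6.24 and 7.22 CPM in 10-month vehicles (-3.05, SE 0.145, adjusted p = 1.73e-12). Grb10, an adaptor that restrains growth factor signals, gave -2.02 (SE 0.114, adjusted p = 2.08e-11). The tumors lay below every juvenile liver on both. The member above was Rian, a noncoding RNA of the Dlk1-Meg3 region (2.90, adjusted p = 0.0269). Rian rested on tumor 6, at 92.9 CPM, while the other tumors lay at 0.72 to 3.67 CPM and the juvenile livers at 1.1 to 3.195 CPM.

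Male-biased genes lay between the juvenile and the adult level in tumors. Of 28 male-biased genes, 25 were higher and 0 lower in tumors than in juvenile livers (median 2.37). Against 10-month vehicles 26 fell in juvenile livers (median -4.35) and 20 in tumors (median -1.01). Juvenile differences missing from tumors included 6 of the 28.

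Cyp4a12a, a male-specific fatty acid hydroxylase (ENSMUSG00000066071, chr4:115299046-115332815), was at 84.5, 104 and 116 CPM in tumors and 68.0, 133 and 159 CPM in 10-month vehicles. All 7 juvenile livers together held 2 counts, at 0, 0 and 0.0786 CPM. The ratio of tumor to juvenile was 5720 with a counting interval of 1580 to 47200 (log2 12.09, SE 1.13, adjusted p = 8.67e-18). Its neighbour Cyp4a12b is nearly identical, and reads may have been split between them; the sum of both was 129 to 165 CPM in tumors, 0 to 1.72 CPM in juvenile livers and 102.5 to 203 CPM in 10-month vehicles.

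Mup20, the pheromone darcin, was at 1888, 2615 and 3154 CPM in tumors, 46.1, 70.9 and 119 CPM in juvenile livers and 2134, 3034 and 4121 CPM in 10-month vehicles (5.10, SE 0.193, adjusted p = 3.91e-13). Tumors overlapped the adults on Mup20 and lay above every juvenile liver.

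Other Mup genes lay between. Single Mup genes share most of their sequence and cannot be told apart with certainty, so the 22 genes were summed: 2390 to 8109 CPM in tumors, 147 to 922 CPM in juvenile livers and 17550 to 25540 CPM in 10-month vehicles. The summed level of tumors was thus 2.90 above juvenile and 2.26 below adult livers on the log2 scale. Elovl3, a fatty acid elongase, lay between too, 4.37 above juvenile (adjusted p = 2.15e-07) and 2.1 below 10-month livers. Hsd3b5, a male-specific steroid dehydrogenase, was the clearest exception: at 1.03, 5.63 and 21.1 CPM in tumors and 2.84, 5.55 and 21.5 CPM in juvenile livers it was low in both, beside 191.5, 240.0 and 327 CPM in 10-month vehicles (tumor minus juvenile -0.07, SE 0.573, adjusted p = 0.931).

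Female-biased genes showed the opposite order. Before puberty male livers express many of them, and 24 of 28 tested were higher in juvenile than in 10-month vehicle livers (median 4.28). In tumors 11 rose (median 1.15), and 19 were lower and 2 higher than in juvenile livers (median -2.78). Sult2a1, a hydroxysteroid sulfotransferase (chr7:13796246-13837409), was at 0.0335, 0.0685 and 0.528 CPM in tumors, 56.7, 75.7 and 93.5 CPM in juvenile livers and 0, 0 and 0.077 CPM in 10-month vehicles (-8.98, SE 0.426, adjusted p = 2.04e-14). Sult2a2 and Sult2a5 gave -9.75 and -9.27, and reads of this family may be shared: the sum of 8 Sult2a genes, which includes adult-high members, was 31.7 to 347 CPM in tumors, 233.5 to 415 CPM in juvenile livers and 820.1 to 1259 CPM in 10-month vehicles.

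Cyp2b9, a female-predominant cytochrome P450, was at 0.1, 0.548 and 5.47 CPM in tumors, 57.5, 115 and 142 CPM in juvenile livers and 0.0388, 0.0834 and 1.58 CPM in 10-month vehicles (-6.41, SE 0.636, adjusted p = 7.72e-07). Hao2, a hydroxyacid oxidase, gave -5.46 (SE 0.436, adjusted p = 2.69e-08). Tumors lay below every juvenile liver on both. Cyp2a4, a steroid hydroxylase, was an exception at the juvenile end: 23.2, 96.5 and 505 CPM in tumors, 21.9, 163 and 331 CPM in juvenile livers and 1.24, 2.02 and 3.18 CPM in 10-month vehicles. The members above the juvenile level were Cd36, a fatty acid translocase (2.002, adjusted p = 9.88e-05), and Sult2a7 (4.198, adjusted p = 3.85e-06).

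**Figure D4:**
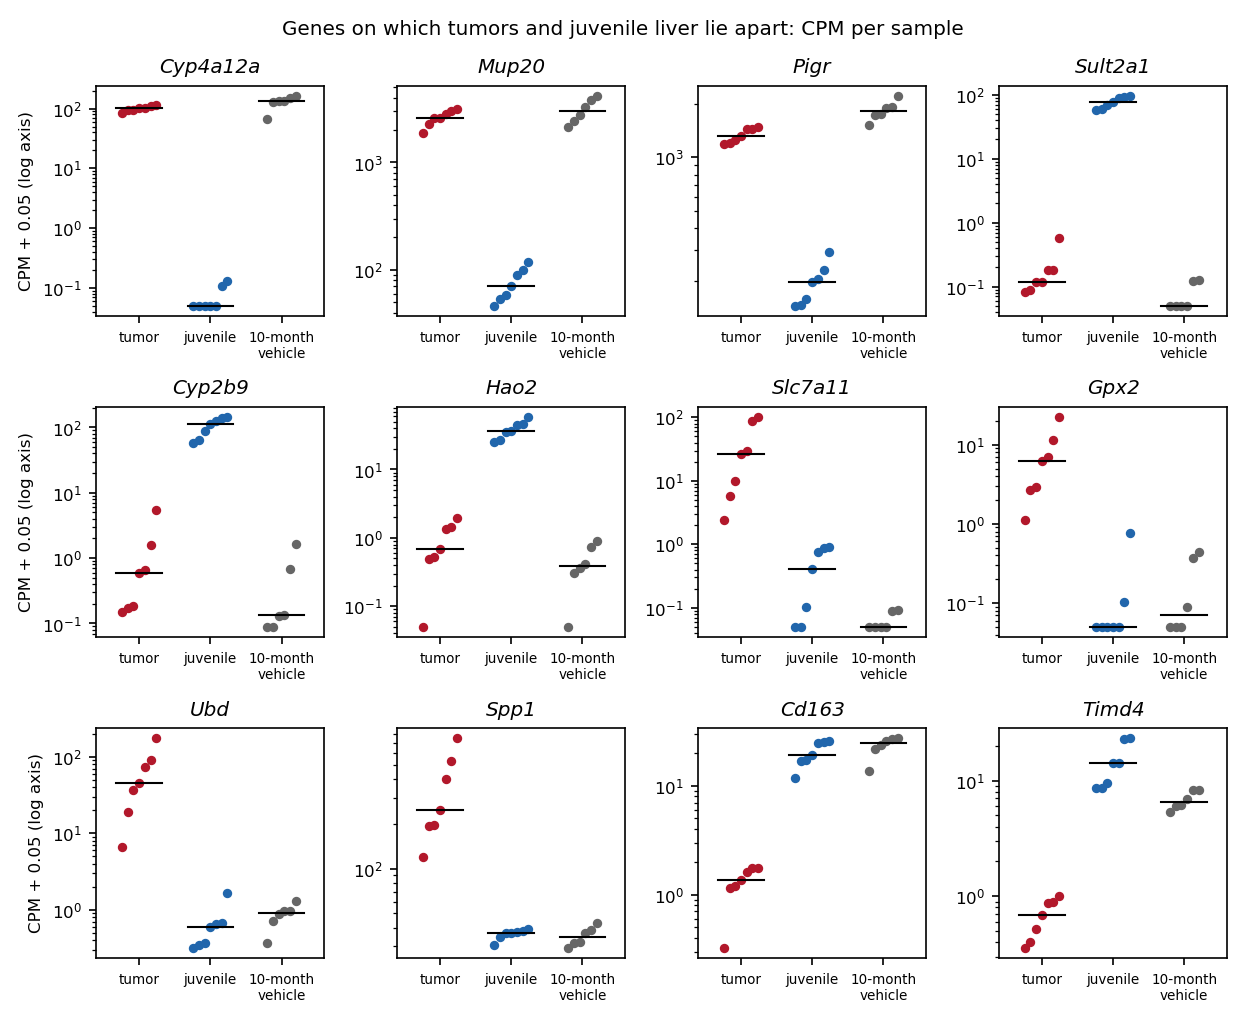
Each panel shows CPM plus 0.05 on a log axis for 1 gene, with a point per sample (7 tumors, 7 juvenile livers, 6 vehicles of 10 months) and a line at the median. Tumors lie far above the juvenile livers and close to the adults on Cyp4a12a, Mup20 and Pigr; Sult2a1, Cyp2b9 and Hao2 are high in juvenile livers; Slc7a11, Gpx2, Ubd and Spp1 are high in tumors; Cd163 and Timd4 are low in tumors.

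Antioxidant and detoxification genes were mostly higher in tumors than in juvenile livers. Of 28 targets of the transcription factor NRF2 and genes of glutathione metabolism, 21 were higher and 2 lower in tumors than in juvenile livers (median 1.63), and on 20 every tumor lay above every juvenile liver, beside 7.89% of all genes. Against 10-month vehicles 19 rose in tumors (median 0.68), while in juvenile livers 5 were higher and 11 lower (median -0.16). The summed level was 3671 to 8180 CPM in tumors, 2082 to 2584 CPM in juvenile livers and 3382 to 4386 CPM in 10-month vehicles.

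Slc7a11, the cystine transporter that feeds glutathione synthesis, was at 2.38, 26.2 and 99.7 CPM in tumors, 0, 0.356 and 0.863 CPM in juvenile livers and 0, 0 and 0.0433 CPM in 10-month vehicles (tumor minus juvenile 6.51, SE 1.05, adjusted p = 1.23e-05). The 10-month vehicles held 2 counts in all, which gives a ratio of tumor to adult of 2980 with a counting interval of 824 to 24600. Nqo1, a quinone reductase, was at 14.99, 29.2 and 106 CPM in tumors, 4.88, 5.70 and 7.64 CPM in juvenile livers and 4.19, 5.52 and 10.6 CPM in 10-month vehicles. It is a tumor change for which the juvenile liver lay at the adult level (2.72 against juvenile, SE 0.375, adjusted p = 1.78e-05). Gsta1 and Gsta2, glutathione transferases that share sequence, summed to 39.6 to 213 CPM in tumors, 1.415 to 4.02 CPM in juvenile livers and 6.715 to 12.5 CPM in 10-month vehicles, so that juvenile and tumor lay on opposite sides of the adult.

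Gpx2, a glutathione peroxidase, and Cbr3, a carbonyl reductase, were 5.99 and 5.10 above juvenile livers (adjusted p = 3.71e-05 and 3.53e-06). Aox1, an aldehyde oxidase, had the smallest p of the list (2.86, SE 0.137, adjusted p = 2.39e-12), but its juvenile level lay below the adult by 2.37 and its tumor level above it by 0.49. The members below the juvenile level were Hmox1, heme oxygenase (-0.68), and G6pdx, which opens the pentose phosphate pathway (-1.01). The letters TGACNNNGC of the antioxidant response element occurred in 6 of 23 promoters of the list on either strand (26.1%), in 12.5% of all promoters and in 14.6% of those tested. The stretch of Abcc4, an efflux transporter 2.39 above the juvenile level (adjusted p = 7.15e-06), is printed with the match, on the opposite strand to these letters, in capitals (chr14:118706220-118706309, minus strand, RefSeq GRCm38.p6).
Abcc4: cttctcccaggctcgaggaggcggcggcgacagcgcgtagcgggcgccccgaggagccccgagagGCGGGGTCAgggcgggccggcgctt

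Transcripts of cholesterol synthesis genes were mostly lower in tumors than in either liver. Of 25 genes of the sterol pathway and its control, 23 were lower and 0 higher in tumors than in juvenile livers (median -0.92), and 24 were lower than in 10-month vehicles (median -0.87). Against 10-month vehicles 3 were higher and 4 lower in juvenile livers (median -0.044). Every tumor lay below every juvenile liver on 16 of the 25, beside 6.64% of all genes. Tm7sf2, a sterol reductase, was at 22.4, 41.1 and 49.0 CPM in tumors, 64.7, 97.9 and 132 CPM in juvenile livers and 112, 142 and 158 CPM in 10-month vehicles (-1.37, SE 0.15, adjusted p = 4.05e-07). Hsd17b7 and Mvd, enzymes of the same pathway, gave -0.91 and -1.41, with adjusted p of 4.88e-08 and 0.000184.

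Of 25 lipogenic genes 15 were lower and 3 higher in tumors than in juvenile livers (median -0.88). Dgat2, which makes triglyceride, was at 265, 280.2 and 385 CPM in tumors, 432, 539 and 631 CPM in juvenile livers and 549, 585 and 689 CPM in 10-month vehicles (-0.83, SE 0.104, adjusted p = 1.69e-06). Lpin1, a phosphatidate phosphatase, was high in juvenile livers, at 258, 478 and 810.0 CPM beside 49.3, 75.9 and 95.4 CPM in tumors and 47.6, 73.6 and 88.5 CPM in 10-month vehicles (-2.80, SE 0.202, adjusted p = 3.47e-09). Pnpla3, a lipid droplet hydrolase, was 1.51 below the adult in tumors and 1.57 above it in juvenile livers.

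Of 20 lipid droplet and lipid uptake genes 8 were higher and 4 lower in tumors than in juvenile livers (median 0.23), and fits of 2 groups only gave 5 higher and a median of 0.043. Cidec, a protein that fuses lipid droplets, was at 20.4, 47.8 and 149 CPM in tumors, 1.06, 2.90 and 3.87 CPM in juvenile livers and 1.57, 4.54 and 5.10 CPM in 10-month vehicles (4.57, SE 0.407, adjusted p = 1.29e-07). Tumors lay above every juvenile and 10-month vehicle liver on Cidec, and juvenile livers lay below the 5-month vehicles (-2.73, adjusted p = 0.000491). Fabp5, a fatty acid binding protein, was lowest in tumors at 12.3, 20.2 and 27.0 CPM and highest in juvenile livers at 134, 260.2 and 432 CPM (-3.69, SE 0.411, adjusted p = 3.47e-06). Tumors and 10-month vehicles overlapped on it, with vehicles at 10.1, 53.1 and 89.3 CPM.

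Of 24 genes of bile acid synthesis and transport 12 fell in tumors and 14 in juvenile livers against 10-month vehicles (medians -0.62 and -0.67), and 9 were higher and 4 lower in tumors than in juvenile livers (median 0.30). Cyp8b1, the sterol hydroxylase that sets the bile acid mix, was at 43.4, 147 and 414 CPM in tumors, 155, 231 and 289 CPM in juvenile livers and 527, 707 and 1011 CPM in 10-month vehicles. Slc10a1, the bile acid importer NTCP, was low in tumors: 42.0, 162 and 435 CPM in tumors, 571, 674 and 833 CPM in juvenile livers and 650.3, 746 and 854 CPM in 10-month vehicles (-1.75, SE 0.297, adjusted p = 0.000118). The exporter Abcc3 and the oxysterol hydroxylase Cyp7b1 were above every juvenile liver (2.33 and 3.55, adjusted p = 1.68e-10 and 8.97e-11).

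Macrophage markers mostly differed in opposite directions by type. Of 15 lipid-associated macrophage and monocyte genes 10 were higher and 2 lower in tumors than in juvenile livers (median 1.68), and 10 were tumor changes away from the juvenile level. The members ran from -3.69, the value given above for Fabp5, to 5.27. Spp1, osteopontin (chr5:104435118-104441050), was at 120.5, 248 and 752 CPM in tumors, 30.7, 37.0 and 39.3 CPM in juvenile livers and 29.3, 34.4 and 43.3 CPM in 10-month vehicles (3.27, SE 0.29, adjusted p = 1.46e-07). It also counts among the duct markers. Gpnmb, a glycoprotein of lipid-laden macrophages, was at 11.9, 30.8 and 52.2 CPM in tumors and 0.532, 0.707 and 1.32 CPM in juvenile livers (5.27, SE 0.39, adjusted p = 1.99e-09), and Trem2, a lipid-sensing receptor, gave 3.77 (SE 0.323, adjusted p = 5.56e-09). Cx3cr1, the fractalkine receptor, gave 3.54 (SE 0.223, adjusted p = 9.68e-11). The adult level of these genes depended on the reference: juvenile livers did not differ from 10-month vehicles by the test on Gpnmb, Trem2 and Cx3cr1, but lay below the 5-month vehicles (-4.585, -2.91 and -2.16, adjusted p = 0.0177, 0.0169 and 0.032).

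Markers of resident Kupffer cells were mostly lower in tumors than in juvenile livers and split against adults. Of 15, 10 were lower and 1 higher in tumors than in juvenile livers (median -0.55), while 10 were higher in juvenile than in 10-month livers. Against 10-month vehicles 4 were higher and 6 lower in tumors (median -0.24). Cd163, a hemoglobin scavenger receptor (chr6:124304656-124330527), was at 0.274, 1.32 and 1.72 CPM in tumors, 11.7, 19.1 and 25.4 CPM in juvenile livers and 13.6, 24.6 and 27.1 CPM in 10-month vehicles (-4.00, SE 0.255, adjusted p = 4.25e-10). Timd4 and Marco, receptors for dying cells and for bacteria, were below the adult in tumors (-3.44 and -2.87) and above it in juvenile livers (1.09 and 1.91). The member above was the complement gene C6 (2.48, adjusted p = 1.11e-12), which hepatocytes also express. The pan-macrophage genes Adgre1 and Cd68 did not pass the test against juvenile livers (-0.47 and 0.04). The summed level of the list overlapped between groups, at 791 to 1085 CPM in tumors and 768 to 1269 CPM in juvenile livers.

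Bile duct genes were high in tumors. Of 15 cholangiocyte and ductal genes 14 rose in tumors against 10-month vehicles, and 9 were higher and 2 lower than in juvenile livers (median 1.44). Anxa13, an epithelial annexin, was at 3.60, 24.9 and 70.9 CPM in tumors and 0.798, 1.06 and 1.24 CPM in juvenile livers (5.03, SE 0.577, adjusted p = 1.33e-06). Sox9, the duct and progenitor transcription factor, was 1.44 above the juvenile level (SE 0.179, adjusted p = 1.46e-06). The defining duct keratins Krt19 and Krt7 did not pass the test (0.64 and 0.89). Cd24a and Prom1, also used as progenitor markers, were below the juvenile level (-1.44 and -1.79).

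Endothelial and blood-forming markers were lower in tumors than in juvenile livers. Of 15 endothelial genes 12 were lower and 2 higher (median -0.88), while against 10-month vehicles 6 were higher and 4 lower in tumors (median 0.034). Stab2, a scavenger receptor of sinusoids, was at 59.3, 78.4 and 94.4 CPM in tumors, 172, 197 and 243 CPM in juvenile livers and 104, 109 and 119 CPM in 10-month vehicles (-1.39, SE 0.0965, adjusted p = 4.8e-10). Among 15 erythroid genes 13 lay below and 1 above the juvenile level in tumors (median -2.87), with summed levels of 195 to 311 CPM in tumors, 636 to 1933 CPM in juvenile livers and 255 to 456 CPM in 10-month vehicles. Slc4a1, the red cell anion exchanger, was at 0.217, 0.343 and 0.966 CPM in tumors and 7.36, 25.6 and 69.1 CPM in juvenile livers (-5.53, SE 0.542, adjusted p = 2.53e-07). The part of these markers in the other differences was not tested.

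Interferon-stimulated and antigen presentation genes were above the juvenile level in 17 of 27 and below it in 0 (median 0.84). Against 10-month vehicles 23 rose in tumors (median 1.67), and 12 rose and 8 fell in juvenile livers (median 0.30). The class II genes gave the largest differences: H2-Aa, a class II alpha chain, was at 68.3, 87.8 and 243 CPM in tumors, 11.6, 14.6 and 28.3 CPM in juvenile livers and 29.5, 33.9 and 40.8 CPM in 10-month vehicles (2.81, SE 0.254, adjusted p = 1.24e-07). H2-Eb1 gave 2.82 (SE 0.251, adjusted p = 8.74e-08). Isg15, a ubiquitin-like interferon-induced protein, lay at the juvenile level, 1.93 and 1.81 above the 10-month vehicles in tumors and juvenile livers. Ubd, another ubiquitin-like modifier that inflammation induces, was at 6.67, 45.9 and 174 CPM in tumors beside at most 1.63 CPM in juvenile livers (6.67, SE 0.765, adjusted p = 4.86e-07).

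Of 13 T and NK cell genes 4 were higher and 1 lower in tumors than in juvenile livers (median 0.39, and 0.045 with 2 higher without tumor 11), and Cd8a, the coreceptor of cytotoxic T cells, was at 1.13, 1.48 and 2.71 CPM beside 0.0509, 0.332 and 0.913 CPM (2.19, SE 0.426, adjusted p = 0.000207). Of 11 B and plasma cell genes 4 were higher and 1 lower (median 0.18, and -0.31 with 1 higher among protein-coding genes alone). Igha, the IgA heavy chain, was at 7.80, 14.6 and 28.7 CPM in tumors, 0, 0.0539 and 0.976 CPM in juvenile livers and 3.15, 5.21 and 5.81 CPM in 10-month vehicles (6.40, SE 0.694, adjusted p = 2.54e-08). Neutrophil genes gave 2 higher and 2 lower of 6 (median 0.14), and only 3 of 16 pancreatic acinar genes passed the filter, 1 higher and 1 lower.

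Of 20 genes of the growth hormone and IGF1 axis 8 were lower and 2 higher in tumors (median -0.32). Igfbp1, an insulin-repressed IGF binding protein, was at 75.2, 162 and 256 CPM in tumors, 386, 737 and 1208 CPM in juvenile livers and 49.7, 82.8 and 192 CPM in 10-month vehicles (-2.23, SE 0.317, adjusted p = 2.37e-05). Ghr, the growth hormone receptor, gave -0.85 in tumors and -1.13 in juvenile livers against 10-month vehicles. Of 30 genes in a list of hepatocyte transcription factors 9 were lower and 4 higher (median -0.25). The 9 became 5 without tumor 5, without tumor 11 or without juvenile 4. The 4 higher include Sox9, given above as a duct gene, and Pparg. Pparg, the fat cell regulator, was 1.60 higher (SE 0.291, adjusted p = 2e-04), and Nr1i3, the xenobiotic receptor CAR, was low in both tumors and juvenile livers (-2.26 and -2.06 against 10-month vehicles).

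Of 29 glycolysis and gluconeogenesis isoenzymes 13 were lower and 3 higher in tumors than in juvenile livers (median -0.41), and the smallest p was that of Pfkfb1, which sets the level of a fructose bisphosphate that drives glycolysis (-1.76, SE 0.183, adjusted p = 3.2e-07). Hk2 and Pfkp, isoenzymes of proliferating tissue, were 2 of the 3 above (1.08 and 1.30). Of 20 urea cycle and periportal genes 5 were higher and 5 lower (median 0.10, and 3 lower without juvenile samples 1 and 2), with Pigr, the polymeric immunoglobulin receptor, at 1195, 1319 and 1486 CPM in tumors, 146, 199 and 294 CPM in juvenile livers and 1525, 1824 and 2202 CPM in 10-month vehicles (2.75, SE 0.134, adjusted p = 2.39e-12). Of 24 Wnt target and perivenous genes 6 were lower, near the 20.1% of all genes, and 2 higher (median -0.41, and 12 lower with a median of -0.74 without tumor 6), with medians of -0.85 for tumors and -0.33 for juvenile livers against 10-month vehicles. Cyp2a5, a coumarin hydroxylase, was 2.85 higher (adjusted p = 1.94e-07), and Cyp2c29 gave -2.14 (adjusted p = 7.39e-06).

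Of 28 PPARalpha targets 7 were higher, near the 23.3% of all genes, and 2 lower (median 0.042, and 6 lower without juvenile samples 1 and 2), with Cyp4a31 at -4.16 (adjusted p = 4.97e-06). Of 26 acute phase genes 10 were higher and 10 lower (median 0.0073): Orm2, whose reads may be shared with Orm1 and Orm3, was 4.88 higher and Apcs, serum amyloid P, gave -1.80. On Orm2 juvenile livers also lay below the 5-month vehicles (-6.515, adjusted p = 0.00117). Of 17 metallothionein and iron genes 7 were higher and 6 lower (median 0.058). Mt1, a metallothionein, was at 9.33, 34.8 and 162 CPM in tumors, 268, 433 and 569 CPM in juvenile livers and 2.08, 5.14 and 30.4 CPM in 10-month vehicles (-3.05, SE 0.547, adjusted p = 0.000406), and Hamp, the iron hormone hepcidin, was low in juvenile livers (3.95, SE 0.625, adjusted p = 0.000165). Of 21 clock genes 6 were lower, beside 20.1% of all genes, and 2 higher (median -0.30), and Noct, a rhythmic nucleotide phosphatase, was at 119, 134 and 192 CPM in tumors, 4.94, 11.7 and 47.6 CPM in juvenile livers and 3.51, 4.21 and 8.57 CPM in 10-month vehicles (3.19, adjusted p = 4.65e-06). Of 22 epigenetic regulators 13 were lower and 4 higher (median -0.40), among the latter Bmi1 and Ezh1, subunits of Polycomb complexes (0.61 and 0.60).

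Some further tumor changes had the juvenile liver within 2-fold of the 10-month vehicles. They included Casp12, an endoplasmic reticulum caspase (3.12 against juvenile), Hr, a nuclear corepressor (3.09), and Epb41l1, a membrane skeleton protein (2.37). On the low side were Pdk1, an inhibitor of pyruvate dehydrogenase (-1.32), and Acss2, which makes acetyl-CoA from acetate (-1.69). Each of these 5 had no overlap between tumors and juvenile livers. Pdk1 was also lower in juvenile livers than in 10-month vehicles (-0.60, adjusted p = 0.00272). Against the 5-month vehicles juvenile livers were lower on Hr (-2.05, adjusted p = 0.0225) and higher on Acss2 (0.99, adjusted p = 0.0396). Genes high in juvenile livers with tumors within 2-fold of the adult level included Nt5e, the ecto-nucleotidase CD73, at 5.76, 10.3 and 15.98 CPM in tumors, 52.3, 70.4 and 82.6 CPM in juvenile livers and 6.21, 9.55 and 11.9 CPM in 10-month vehicles (-2.74, SE 0.201, adjusted p = 4.42e-09). Dnaic1, an axonemal dynein chain, and Zfp791, a zinc finger gene, gave -3 and -2.25. Zfp791 was also higher in tumors than in 10-month vehicles (0.46, adjusted p = 0.0457).

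**Figure D5:**
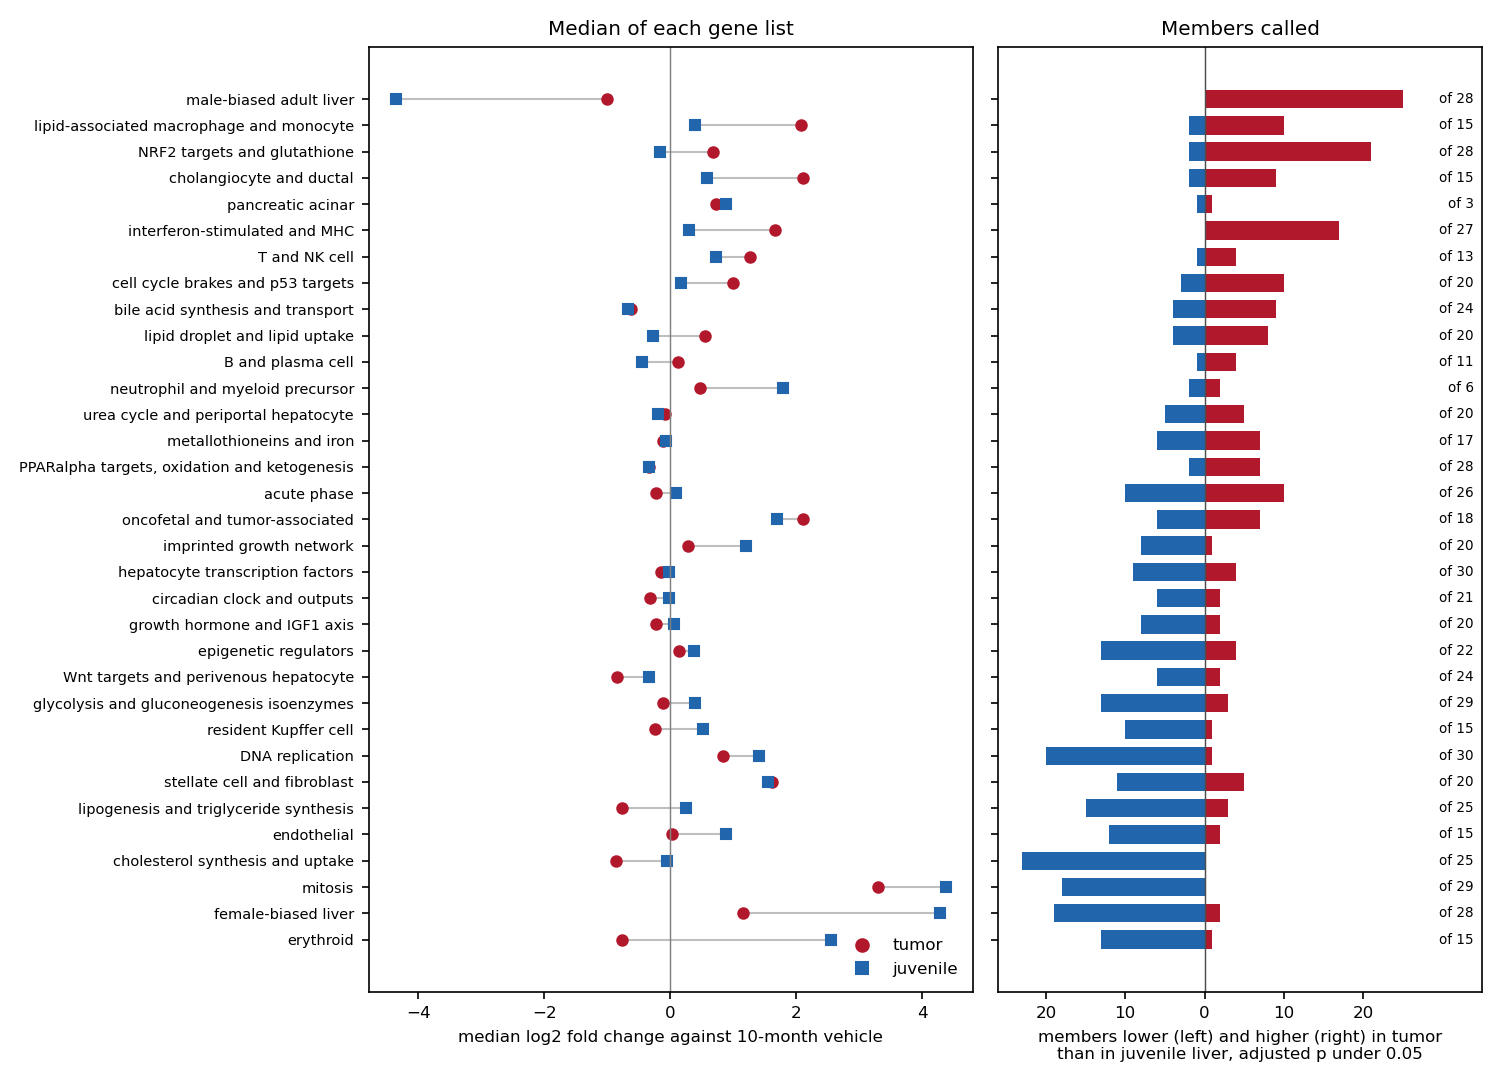
Left: for each of 33 gene lists, the median log2 fold change against 10-month vehicles of tumors (circles) and of juvenile livers (squares). Right: how many members were lower (left, blue) or higher (right, red) in tumors than in juvenile livers at an adjusted p under 0.05, of the number tested. Male-biased genes (25 higher of 28), NRF2 targets (21 of 28) and cholesterol genes (23 lower of 25) have the longest bars.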

How the data were processed

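RNA of mouse liver was sequenced from rRNA-depleted, strand-marked libraries (Illumina TruSeq stranded total RNA, per the labels' protocols). The authors deposited 1 table of whole-number counts for 55536 genes. Trim Galore, HISAT2, featureCounts and the mm10 genome are named in the submitters' processing notes, and ComBat-seq batch adjustment is named by the deposited count file itself; versions, annotation and strand setting are not given in the sources used here. Adjusted counts may carry less spread between samples than raw ones.

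All gene identifiers matched GENCODE M21. Columns were assigned by their titles, and the pair of libraries with 1 juvenile number was summed. The main test was edgeR's quasi-likelihood test (version 4.0.16, R 4.3.3) after filterByExpr and TMM normalisation, with robust dispersions and Benjamini-Hochberg adjustment at 0.05. It had tumors, juvenile livers and 10-month vehicles in 1 fit and juvenile livers against 5-month vehicles in another, all from batch 1. DESeq2 1.42.0 was an alternative. Intervals and folds from few counts cover counting error only, with a floor of 3 counts over the group.

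Named genes other than those taken from the gene lists had a mean of at least 5 CPM in the highest group and were no predicted models. List members had no such minimum: Cd8a, for example, had a mean of 1.65 CPM in tumors, its highest group. The rule took the 8 highest and 8 lowest differences with no overlap, the 6 largest rises and 6 largest falls at the juvenile level, 6 and 6 tumor changes with the juvenile liver within 2-fold of the 10-month vehicles, 4 and 4 changed in opposite directions, 5 and 5 missing from tumors, and the 2 smallest p of each of 33 gene lists; other genes named are list members chosen after their values were seen. The members and lists were chosen with earlier results of these data known.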

Additional observations from a re-analysis of the deposited data

Results flagged for a closer look

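Within groups of 6 or 7 samples, 31 of 269 groups of values had 1 sample far from the others by Dixon's criterion at 95%, where chance flags about 1 in 20. That rate is for normally distributed values, and CPM near 0 are skewed, so no conclusion is drawn from the excess. The flag of Sult2a5 below rests on 1 count. Tumor 7 was that sample in 5 of the results on lists and positions. Its mean log2 CPM was lowest among tumors for the oncofetal list (1.751), mitosis (-0.1901), DNA replication (1.593) and lipogenesis (6.407), and its position along the juvenile-higher genes was 0.326.

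Among the other lists, tumor 6 was highest on imprinted genes (3.932), tumor 11 lowest on male-biased genes (5.106), tumor 3 lowest on endothelial genes (3.936) and juvenile 4 lowest on cell cycle brakes (2.65), all as mean log2 CPM. In 10-month vehicles, vehicle 5 was lowest on Wnt targets (6.204) and highest on B and plasma cell genes (3.167), and vehicle 1 highest on acinar genes (1.295).

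Single tumors stood apart in CPM for Cd163 (tumor 11, 0.2742), Nqo1 (tumor 11, 106), Cyp2b9 (tumor 6, 5.475), Cyp3a16 (tumor 6, 3.826), Sult2a1 (tumor 6, 0.5277), Cyp2d12 (tumor 1, 28.8), G0s2 (tumor 12, 114) and Mup11 (tumor 7, 202.1). Single juvenile livers did for Cyp4a12b (juvenile 6, 1.719), Epb41l1 (juvenile 1, 6.745), Fbn1 (juvenile 4, 27.03), Mup11 (juvenile 4, 3.388), Mup14 (juvenile 7, 3.301), Slc4a1 (juvenile 3, 69.12), Sptb (juvenile 3, 26.8), Ubd (juvenile 5, 1.629) and Zfp791 (juvenile 2, 13.22). In 10-month vehicles these were Cyp4a12a (vehicle 4, 67.97) and Sult2a5 (vehicle 2, 0.03653).

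A single 10-month vehicle library carries the label of a tumor and was in none of the comparisons. It held H19 at 389.4 CPM, Slc7a11 at 22.9 CPM and Mki67 at 61.06 CPM, above the highest of the 6 other 10-month vehicles (0.5626, 0.04328 and 7.857 CPM).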

How the results depend on the processing

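Among 109 named genes, 102 kept their direction and side of the threshold for tumor against juvenile under every alternative in which they were checked, and none reversed. They were not checked in the fit with no filter on low counts. Many were picked by this same contrast, so that they stayed called was in part set by the choice. With no filter on low counts, 12174 genes differed for tumor against juvenile vehicle (3831 higher, 8343 lower), beside 3216 lower with the filter. Between juvenile and 10-month livers 12136 differed (8358 higher, 3778 lower), and between juvenile and 5-month livers 1426. These counts include genes near 0 and come without the number tested, so they cannot be set against the shares of the main fit. Juvenile samples 1 and 2, with 30708 and 27350 genes detected, were in these fits, and their part was not tested. Fits of 2 groups only left 726 tumor changes away from the juvenile level. Without the libraries that stood apart, 4801 genes differed between juvenile and 5-month livers. An interval margin of 0.58 left 119 genes at the juvenile level and 143 missing from tumors. With 5-month vehicles as the adult reference 55 were at the juvenile level, 500 away and 305 missing; without 5-month vehicle 9, an alternative chosen after seeing the data, 153 were at the level and 730 away. Leaving out 1 sample at a time gave 6448 to 7025 genes for tumor against juvenile vehicle, 6482 to 7428 for tumor against 10-month vehicle, 7532 to 8148 for juvenile against 10-month vehicle, 2070 to 4763 for juvenile against 5-month vehicle (4763 without vehicle 9), 481 to 610 at the juvenile level, 985 to 1163 away and 511 to 590 missing. Same-numbered tumors and juveniles shared only a number (correlations of deviations 0.027 to 0.213), and the replicate block over 5 numbers gave 4615 genes, beside 4676 for the same samples without it. The causes of these moves were not tested, except that the block used fewer samples. Juvenile libraries were the shallowest of the 3 fitted groups, which limits genes near 0 there.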

Other observations

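The 10-month vehicle library labelled as a tumor held 11.5 M (mega) counts with 14.1% mitochondrial counts. It lay at 1.02 along the genes higher and at -0.218 along the genes lower in juvenile than in 5-month liver, beside 0.326 to 1.35 and -0.249 to -0.0561 in the TBT tumors. Its Cyp4a12a was 189 CPM, Sult2a1 0.415 CPM, Spp1 152 CPM, Gpnmb 54.9 CPM, Cd163 1.245 CPM and Peg3 11.3 CPM. It is 1 library, so these values have no replicate check.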
